A study of Solanum lycopersicum with 12 samples.

Results

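The genes that remove superoxide and peroxides, those that recycle ascorbate and glutathione, and the glutathione transferases were followed in tomato fruit pericarp by RNA sequencing. Members were chosen from the gene descriptions in the deposited count table. A description had to contain the name of ascorbate peroxidase, dehydroascorbate reductase, glutathione reductase, glutathione peroxidase, glutathione S-transferase, superoxide dismutase, catalase or peroxiredoxin, in any case, and the gene needed at least 10 counts in at least 3 libraries. Of 35882 features in the table, 144 matched by description and 94 also met the count minimum, while 50 did not. The 94 comprised 11 superoxide dismutase genes of 11 by description, 7 of 8 catalase, 10 of 13 ascorbate peroxidase, 3 of 7 monodehydroascorbate reductase, 1 of 1 dehydroascorbate reductase, 2 of 2 glutathione reductase, 8 of 9 glutathione peroxidase, 6 of 8 peroxiredoxin and 46 of 85 glutathione transferase genes. Just inside the count minimum was Solyc02g083630, described as an ascorbate peroxidase, with 104 counts in all. So was Solyc06g048420, described as a superoxide dismutase, with 101 counts. Both reached 10 counts in 4 libraries. Just outside were 4 genes that reached it in 2 libraries, with 200 counts in all for the 1-Cys peroxiredoxin Solyc03g096040, 69 for the glutathione peroxidase Solyc08g068800, 58 for the transferase Solyc09g011490 and 47 for the transferase Solyc09g011630.

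The 4 groups were cr breaker, WT breaker, cr mature green and WT mature green, with 3 libraries in each. Here cr is the mutant of the study and WT its wild type, labelled A. The labels attach 35 to the mature green stage and 38 to the breaker stage, do not say what those figures count, and do not name the mutated gene, so the lesion itself could not be checked in these libraries. Mature green fruit has reached full size and is still green, and breaker is the stage at which the first colour shows. The tissue was frozen pericarp, the fleshy fruit wall, and RNA was extracted with Trizol. Each group was made in triplicate, but no label says that the triplicates came from separate plants or fruits. The p-values therefore rest on library-to-library spread alone, and that spread may be technical.

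Superoxide, formed mostly in electron transport in plastids and mitochondria, is turned into hydrogen peroxide by superoxide dismutase. Catalase in peroxisomes breaks hydrogen peroxide down, and ascorbate peroxidase reduces it with ascorbate, which monodehydroascorbate reductase, dehydroascorbate reductase and glutathione reductase then regenerate at the cost of glutathione and NADPH. Glutathione peroxidases and peroxiredoxins reduce peroxides with thiols, most plant glutathione peroxidases using thioredoxin, and glutathione transferases couple glutathione to electrophilic compounds or carry out related thiol reactions. In ripening tomato these systems work while chloroplasts become chromoplasts.

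Not every description named the enzyme itself. A total of 78 members carried the protein domain of their class in the description and 16 did not. The description of Solyc09g082690 begins with superoxide dismutase while its best protein match was an early light-induced protein. Solyc08g079830 is the copper chaperone that loads copper and zinc superoxide dismutase, and Solyc06g011280 is an elongation factor subunit. For 9 members a gene on the opposite strand overlaps them, and reads from the 2 strands cannot be told apart without the strand setting of the counting, which the sources used here do not give. Nor do they say how reads shared by close copies were counted. Of the 94 members, 3 have no Solyc identifier.

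Counts were totalled at 17703054 to 19426192 in each library, and the members held 1.16% to 1.44% of them. Mature green library 3 of WT and breaker library 1 of cr stood apart from their groups on the principal components, and results that change without them say so. Levels are given as CPM, read counts scaled to 1 common library size with TMM factors, and log2 fold changes come with their SE. A gene was called when its adjusted p from edgeR's quasi-likelihood test, corrected by Benjamini-Hochberg over the 19664 genes tested, was under 0.05. Ripening markers, a list of 4 genes none of which was at 0, summed to 7020.0 to 14960.0 CPM in cr breaker, 28580.0 to 30700.0 CPM in WT breaker, 1041.0 to 1490.0 CPM in cr mature green and 1941.0 to 3585.0 CPM in WT mature green. Green tissue markers, 45 chlorophyll a-b binding protein and Rubisco small subunit genes of which 3 were at 0, summed to 1404 to 2434 CPM in cr breaker, 713 to 931 CPM in WT breaker, 3171 to 3452 CPM in cr mature green and 2368 to 2718 CPM in WT mature green. A list of 157 seed genes, 48 of them at 0, summed to 3862 to 5395 CPM in cr breaker, 2704 to 2869 CPM in WT breaker, 6503 to 7794 CPM in cr mature green and 5829 to 8843 CPM in WT mature green. In that list 1 late embryogenesis abundant gene held 28.3% to 72.2% of the sum. The 52 storage protein and oleosin genes, 25 of them at 0, reached at most 195.5 CPM in any library. In cr they went the other way from the whole list, with 123.1 to 153.2 CPM at breaker and 33.96 to 44.02 CPM at mature green. In WT the stages overlapped, with 92.18 to 118.2 CPM at breaker and 33.27 to 195.5 CPM at mature green. Xylem genes, 53 with 20 at 0, summed to 153 to 182 CPM in cr breaker and 146 to 190 CPM in WT breaker. At mature green they summed to 119 to 136 CPM in cr and 140 to 159 CPM in WT. Epidermis and cuticle genes, 213 with 64 at 0, summed to 2473 to 2772 CPM in cr breaker and 2321 to 2485 CPM in WT breaker. Their mature green sums were 1637 to 1858 CPM in cr and 2219 to 2451 CPM in WT. These sums do not give the direction of the single genes. Of 91 epidermis genes tested, 11 were called higher and 38 lower between stages in WT, where 48.3% of all genes were called. At breaker 23 were higher and 5 lower in cr than in WT, where 25.0% of all genes were called. The part of these tissues in the member values was not tested, and in whole pericarp fewer cells of a type and less RNA per cell cannot be told apart.

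Catalase transcripts had the highest summed CPM of the 9 classes. On the log2 scale the superoxide dismutase sum was at -0.545 for cr against WT at breaker, or -0.40 over the members that carry the class domain, and the ascorbate peroxidase sum was at -0.41. The superoxide dismutase members summed to 1394 ± 57.6 CPM in cr breaker and 2033 ± 161 CPM in WT breaker. At mature green they summed to 919 ± 69.3 CPM in cr and 1029 ± 141 CPM in WT (mean ± SD, n = 3 in each group for all sums). Ascorbate peroxidase members summed to 1269 ± 2.23 CPM in cr breaker and 1684 ± 184 CPM in WT breaker. Their mature green sums were 1069 ± 102 CPM in cr and 1110.0 ± 133 CPM in WT. Both sums were highest in WT breaker, with no overlap between that group and the other 3. Peroxiredoxins showed a like order, with 1018 ± 51.3 CPM in cr breaker and 1169 ± 14.8 CPM in WT breaker. The mature green sums were 729 ± 46.6 CPM in cr and 806 ± 115 CPM in WT. Glutathione peroxidases summed to 581 ± 39.2 CPM in cr breaker and 766 ± 53.3 CPM in WT breaker. At mature green the sums were 432 ± 12.3 CPM in cr and 507 ± 60.2 CPM in WT.

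The catalase sum ran the other way. It was 5747 ± 339 CPM in cr breaker and 4772 ± 479 CPM in WT breaker. Mature green fruit gave 5331 ± 249.8 CPM in cr and 6362 ± 652 CPM in WT, and WT breaker had the lowest mean. A single gene, CAT1, held 95.6% of it. Without CAT1 the log2 difference of the catalase sum between cr and WT at breaker turned to -0.75 from 0.27 with it, and the breaker against mature green difference in WT turned to 0.94 from -0.41. Solyc09g007270 held 42.9% of the ascorbate peroxidase sum, and without it the difference between cr and WT at breaker was 0.10 in place of -0.41. Glutathione transferases summed to 2370.0 ± 77.6 CPM in cr breaker and 2842 ± 340.3 CPM in WT breaker. For mature green, the means were 2170.0 ± 60.1 CPM in cr and 2395 ± 166 CPM in WT. That sum includes the elongation factor subunit Solyc06g011280, with 346 CPM in cr breaker and 351 CPM in WT breaker. Its mature green means were 420 CPM in cr and 391 CPM in WT. The dehydroascorbate reductase class is a single gene, described further on, since 4 dehydroascorbate reductase-like members are described as transferases and counted there. Monodehydroascorbate reductases summed to 488 ± 28.4 CPM in cr breaker and 531 ± 17.4 CPM in WT breaker. At mature green they summed to 418 ± 8.60 CPM in cr and 449 ± 36.5 CPM in WT. Glutathione reductases summed to 247 ± 8.06 CPM in cr breaker and 256 ± 16.7 CPM in WT breaker. Their mature green sums were 235 ± 3.10 CPM in cr and 249.7 ± 5.14 CPM in WT. At breaker, the difference between cr and WT exceeded the spread between libraries in every class but glutathione reductase. No test was run on the sums.

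**Figure D1:**
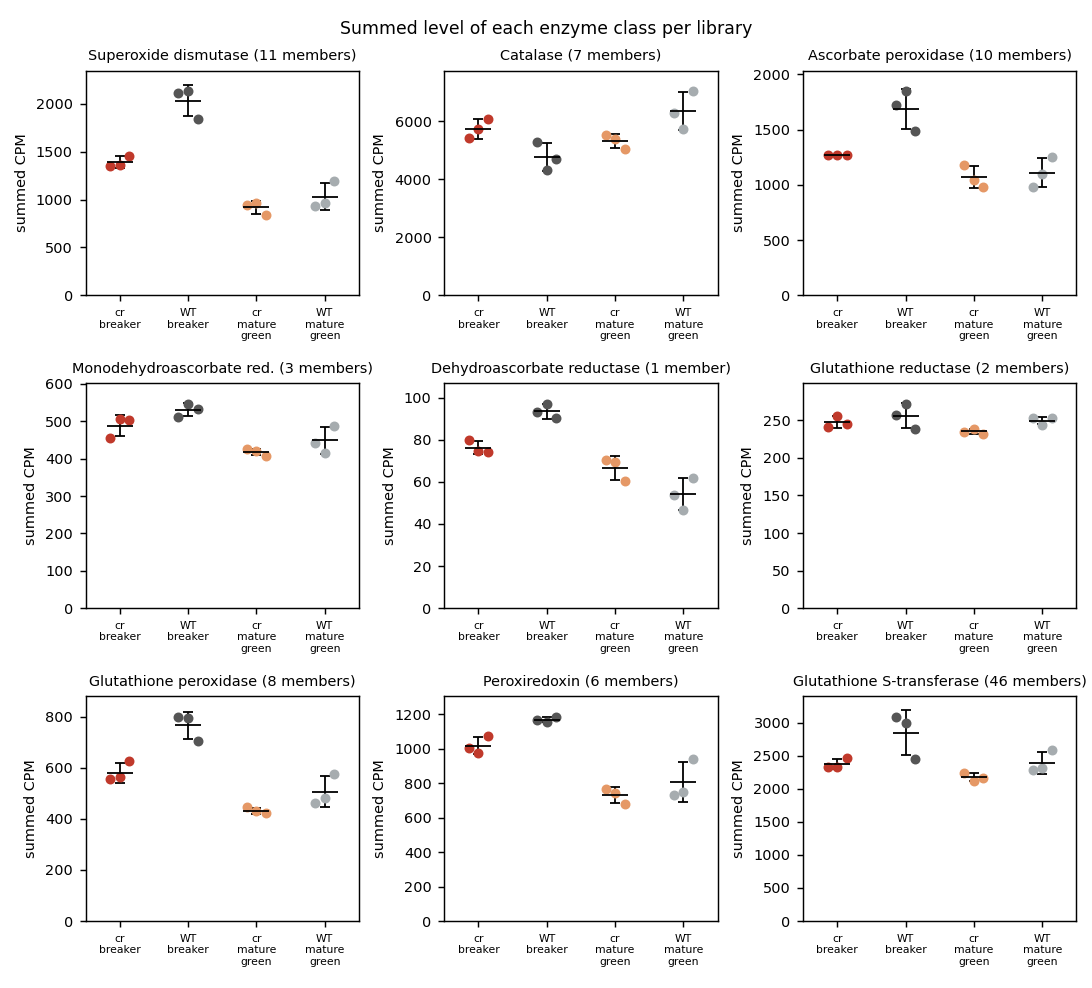
Summed CPM of the members of each class in the 4 groups, cr breaker, WT breaker, cr mature green and WT mature green from left to right, 1 panel a class with its own axis from 0. Points are the 3 libraries of a group and bars are mean ± SD. SOD is superoxide dismutase, CAT catalase, APX ascorbate peroxidase, MDHAR monodehydroascorbate reductase, DHAR dehydroascorbate reductase, GR glutathione reductase, GPX glutathione peroxidase, PRX peroxiredoxin and GST glutathione transferase. WT breaker is the highest group for SOD (2033 CPM) and APX (1684 CPM) and the lowest for CAT (4772 CPM).

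On a per length scale, averaged over the 12 libraries, CAT1 reached 2850.0 FPKM, a unit that scales reads by gene length and library size. The leading members of the other classes were the cytosolic-type ascorbate peroxidase Solyc09g007270 at 481 FPKM, and the superoxide dismutase SODCC.5 at 438 FPKM. They were followed by the zeta transferase Solyc01g102660 at 414 FPKM and the peroxiredoxin Solyc07g020860 at 353 FPKM. Lower still were the monodehydroascorbate reductase AFRR at 178 FPKM, the glutathione peroxidase GPXle-1 at 149 FPKM, the glutathione reductase Solyc09g091840 at 72.2 FPKM and the dehydroascorbate reductase Solyc11g011250 at 63.3 FPKM. A member that matches a dehydroascorbate reductase best but was counted with the transferases averaged 77.7 FPKM.

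Across the 94 members, most calls fell between stages, and WT had more of them than cr. Breaker against mature green, 26 members were higher and 5 lower in cr, where 28.7% of all genes were called (15.2% higher and 13.5% lower). In WT 43 were higher and 18 lower, where 48.3% of all genes were called (23.4% higher and 24.9% lower). At breaker, 15 members were higher and 21 lower in cr than in WT, against 25.0% of all genes called (2760 genes higher and 2165 lower). At mature green, none was higher and 3 were lower in cr, against 4.34% of all genes (1.72% higher and 2.62% lower). That background rests on single libraries: the 853 genes called at mature green were 243 without WT library 3 of that stage, 512 without WT library 1, 331 without cr library 2, 373 without cr library 1 and 406 without cr library 3. They were 472 with both libraries that stand apart left out and 1452 with the DESeq2 test. A test of the difference between the lines' stage changes called 7 members higher and 6 lower, against 13.1% of all genes (8.53% higher and 4.62% lower). In total 70 members were called in at least 1 of the 5 comparisons, 24 in none and 0 in all 5. In both directions together, the share of members called was 64.9% between stages in WT and 38.3% for cr against WT at breaker, both above the background. It was 33.0% between stages in cr, 3.19% at mature green and 13.8% for the difference in stage change, each near it.

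By direction the members leaned upward between stages. The median log2 fold change over members was 0.20 in cr and 0.28 in WT, where the medians of all genes tested were 0.00 in both. Between cr and WT at breaker the members' median was -0.21, against 0.00 over all genes, and at mature green it was -0.07, against -0.01. These splits move with the scaling of the libraries. With library totals in place of TMM factors the calls at breaker in cr against WT became 22 higher and 14 lower, 61.1% higher in place of 41.7%, and with upper quartile factors 18 and 18. Between stages, library totals gave 18 higher and 9 lower in cr and 34 higher and 26 lower in WT, and the difference in stage change gave 11 higher and 4 lower, or 11 and 5 with upper quartile factors. Library totals shifted the median of all genes to 0.13 for cr against WT at breaker, to -0.10 and -0.19 for the stage change in cr and in WT, and to 0.13 for the difference in stage change, while upper quartile factors shifted the stage change in WT to -0.10. TMM values are used below, and directions that turn with the scaling are named. The 2 comparisons of cr with WT share libraries with the 2 stage comparisons, so their values are set side by side and are not independent of each other.

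Of the members, 23 were higher at breaker in both lines and 4 lower in both, while 20 were called higher and 14 lower in WT without a call in cr. In cr alone 3 were called higher and 1 lower, and 29 were called in neither. Over all genes, 9498 were called between stages in WT and 5645 in cr. Neither these joint counts nor the sizes below were set against all genes, so they are not read as particular to the members. Among the 23 higher in both, the median log2 fold change was 0.66 in cr and 0.77 in WT, and 18 had the larger value in WT. The 4 lower in both had medians of -0.56 in cr and -1.60 in WT, all with the larger fall in WT. A call in 1 line and not in the other does not show that the lines differ; of the members called in both lines, 5 were also called in the test of the difference, 3 of the 23 and 2 of the 4.

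**Figure D2:**
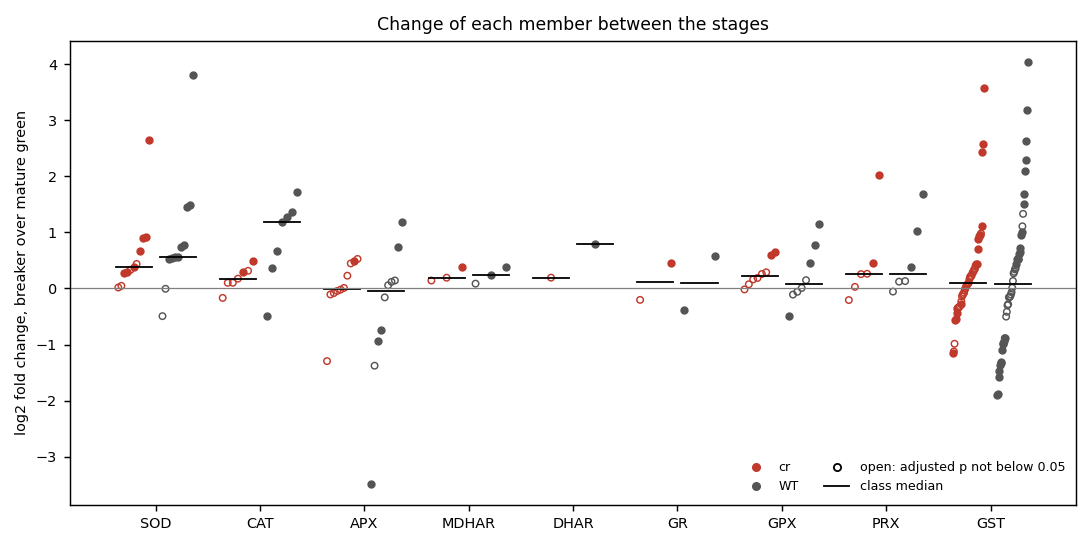
Log2 fold change of breaker over mature green for each of the 94 members, by class, in cr and in WT (edgeR, 3 libraries in each group). Filled points were called at an adjusted p under 0.05 and open points were not; class names are SOD superoxide dismutase, CAT catalase, APX ascorbate peroxidase, MDHAR monodehydroascorbate reductase, DHAR dehydroascorbate reductase, GR glutathione reductase, GPX glutathione peroxidase, PRX peroxiredoxin and GST glutathione transferase. The superoxide dismutase class has 7 called points in cr and 9 in WT, all above 0.

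Superoxide dismutase genes rose at breaker in both lines. In cr 7 of 11 members were higher and none lower, in WT 9 were higher and none lower, and 6 of 11 were lower in cr than in WT at breaker. Under library totals these counts were 4, 8 and 3, with no call in the other direction. With TMM factors 63.6% of the class was called between stages in cr, 81.8% in WT and 54.5% between the lines at breaker. Of all genes 28.7%, 48.3% and 25.0% were. Of the 6, the iron enzyme Solyc06g048410 and the copper chaperone Solyc08g079830 passed the test at breaker in all 20 alternative settings, and the others did not. SODCC.5 (Solyc01g067740, chromosome 1, 69452727 to 69457709), a copper and zinc enzyme, had 443, 472 and 442 CPM in cr breaker and 677, 702 and 502 CPM in WT breaker. Its mature green values were 288, 286 and 280.3 CPM in cr and 324, 353 and 454 CPM in WT. Breaker lay above mature green in each line. The rise was 0.67 ± 0.14 log2 in cr (adjusted p = 0.00372) and 0.73 ± 0.14 in WT (adjusted p = 0.000853). Between cr and WT at breaker the fold change was -0.47 ± 0.14 (adjusted p = 0.0267), a call that was lost without cr breaker library 1 or 3 or WT breaker library 1 or 2 (adjusted p 0.0729 to 0.109) and with library totals or a fit of only the groups compared (adjusted p 0.0574 to 0.0614).

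The iron superoxide dismutase Solyc06g048410, of the type found in plastids, had 280.4, 270.4 and 276 CPM in cr breaker and 414, 421 and 421 CPM in WT breaker. The mature green libraries gave 148, 174 and 117 CPM in cr and 141, 139 and 178 CPM in WT. All WT breaker libraries exceeded all cr breaker libraries, and the mature green libraries of the lines overlapped. It rose by 0.91 ± 0.13 log2 in cr (adjusted p = 0.000335) and by 1.46 ± 0.14 in WT (adjusted p = 2.38e-06), and was lower in cr than in WT at breaker, at -0.60 ± 0.13 (adjusted p = 0.00529). The stage changes of the lines differed by -0.55 ± 0.19 (adjusted p = 0.0731) and did not pass the test, but a call was made without cr mature green library 3 or WT mature green library 3 (adjusted p 0.0213 to 0.0368) and with both libraries that stand apart left out or the DESeq2 test (adjusted p 0.0316 to 0.0499). The copper chaperone Solyc08g079830 followed the same order, with 56.1, 58.6 and 66.4 CPM in cr breaker and 81.4, 92.8 and 90.5 CPM in WT breaker. At mature green it had 33.7, 35.8 and 27.4 CPM in cr and 31.3, 27.0 and 35.6 CPM in WT. It rose by 0.90 ± 0.12 log2 in cr and 1.495 ± 0.12 in WT, and the difference of -0.59 ± 0.17 between these changes was called (adjusted p = 0.0402). That last call was lost without cr breaker library 1 or 2, WT breaker library 2 or 3, cr mature green library 1 or 2 or WT mature green library 1 or 2 (adjusted p 0.0649 to 0.101) and with library totals (adjusted p 0.0602).

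Smaller changes of the same direction were called for other superoxide dismutases. In WT the copper and zinc enzyme Solyc03g062890 rose by 0.57 ± 0.09 log2, Solyc02g021140, whose best match is a chloroplast iron enzyme, by 0.56 ± 0.09, and Solyc06g049080, whose best match is the manganese enzyme of mitochondria, by 0.54 ± 0.12. In cr they rose by 0.27 log2 (adjusted p = 0.0427), 0.29 (adjusted p = 0.0266) and 0.38 (adjusted p = 0.0304), in that order. Those calls in cr were made in only 5, 12 and 14 of 20 alternative settings. The first of them was lower in cr at breaker, at -0.33 ± 0.09 (adjusted p = 0.0199), and so was the second, at -0.27 ± 0.09 (adjusted p = 0.0422). The call of Solyc03g062890 was lost without cr breaker library 2 or 3 or WT breaker library 1 or 2 (adjusted p 0.0548 to 0.0736) and with library totals (adjusted p 0.107). That of Solyc02g021140 was lost without cr breaker library 2 or 3, WT breaker library 1 or 2, cr mature green library 1, 2 or 3 or WT mature green library 2 (adjusted p 0.0527 to 0.172) and with upper quartile factors, library totals, no filter on low counts or a fit of only the groups compared (adjusted p 0.0661 to 0.288). SODCP.2 (Solyc11g066390), the chloroplast copper and zinc enzyme, was called in no comparison, with 213 ± 22.3 CPM in cr breaker and 211 ± 13.3 CPM in WT breaker. Mature green fruit gave 210.4 ± 18.2 CPM in cr and 212 ± 23.1 CPM in WT. The largest stage change in the class belonged to Solyc09g082690, the gene whose best match was an early light-induced protein, a family that binds pigments in thylakoids. It had 57.7, 85.0 and 202 CPM in cr breaker and 407, 343 and 292 CPM in WT breaker. For mature green, the values were 18.7, 25.5 and 10.9 CPM in cr and 38.2, 9.25 and 27.2 CPM in WT. Breaker and mature green did not overlap in either line, and the 3 cr breaker libraries were spread widely, all below the WT ones. Its log2 fold changes were 2.64 ± 0.51 between stages in cr (adjusted p = 0.0021), 3.80 ± 0.53 in WT (adjusted p = 6.48e-05) and -1.60 ± 0.48 between cr and WT at breaker (adjusted p = 0.0265). The call at breaker was lost without cr breaker library 1 or 2 or WT breaker library 1 or 2 (adjusted p 0.06 to 0.0943) and with both libraries that stand apart left out (adjusted p 0.106).

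Catalases split between the abundant CAT1 and the rest. In WT 6 of 7 members were higher at breaker and CAT1 was lower, in cr 2 were higher and none lower, and at breaker 5 were lower in cr than in WT with none higher. The shares called were 100% between stages in WT, 28.6% in cr and 71.4% between the lines at breaker. For all genes they were 48.3%, 28.7% and 25.0%. Of the 7, 4 carry the catalase domain, and the 3 that do not are among the 6 higher in WT. Library totals gave 4 higher and 1 lower in WT, 1 higher in cr, and 1 higher and 4 lower in cr than in WT at breaker. CAT1 (Solyc12g094620, chromosome 12, 64287079 to 64289521) had 5188, 5517 and 5861 CPM in cr breaker and 4901, 3963 and 4315 CPM in WT breaker. Mature green libraries had 5371, 5205 and 4863 CPM in cr and 6093, 5559 and 6841 CPM in WT. WT breaker lay below WT mature green without overlap, whereas the cr stages overlapped. Its log2 fold change between stages was 0.10 ± 0.13 in cr (adjusted p = 0.613) and -0.49 ± 0.13 in WT (adjusted p = 0.00877), a fall. At breaker cr against WT gave 0.33 ± 0.13 (adjusted p = 0.0905), which did not pass the test, although a call for higher was made with upper quartile factors, library totals or the DESeq2 test (adjusted p 0.0122 to 0.043).

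The less abundant catalases were lower in cr breaker than in WT breaker. Solyc01g100640 (chromosome 1, 82876828 to 82881112) had 51.6, 55.9 and 55.2 CPM in cr breaker and 127, 108 and 129 CPM in WT breaker. In mature green fruit it had 44.6, 53.3 and 53.6 CPM in cr and 47.0, 54.8 and 47.9 CPM in WT. Only the WT breaker libraries stood above the rest; those of the other 3 groups overlapped. Its stage change was 0.10 ± 0.10 log2 in cr (adjusted p = 0.494) and 1.28 ± 0.10 in WT (adjusted p = 8.28e-07), and these differed by -1.18 ± 0.14 (adjusted p = 0.000369). The short neighbour Solyc01g100630, at 82875654 to 82875812 on the same strand, had 6.80 ± 2.23 CPM in cr breaker and 16.2 ± 1.103 CPM in WT breaker. Its mature green means were 6.02 ± 1.88 CPM in cr and 6.31 ± 1.38 CPM in WT. Its reads may come from the same transcripts, so it adds no separate evidence. Solyc04g082460, whose best match is catalase isozyme 3 of Nicotiana plumbaginifolia, had 81.0, 71.7 and 79.0 CPM in cr breaker and 126, 129 and 124 CPM in WT breaker. The mature green libraries gave 50.1, 57.0 and 57.8 CPM in cr and 54.5, 48.5 and 63.7 CPM in WT. It rose in both lines, by 0.49 ± 0.10 log2 in cr (adjusted p = 0.00327) and 1.19 ± 0.10 in WT (adjusted p = 1.39e-06), and the changes differed by -0.69 ± 0.14 (adjusted p = 0.00769). CAT2 (Solyc02g082760), an ethylene-responsive catalase by its description, rose in WT by 0.37 ± 0.09 (adjusted p = 0.00428), a call that was lost with library totals (adjusted p 0.0992). At breaker cr against WT gave -0.31 ± 0.09 for CAT2 (adjusted p = 0.023), which was lost without cr breaker library 2 or 3 or WT breaker library 1 or 2 (adjusted p 0.0591 to 0.0936) and with library totals or a fit of only the groups compared (adjusted p 0.0529 to 0.135). The fifth member lower in cr breaker, Solyc01g099440, is described first as a DNA helicase, carries no catalase domain and had -0.9964 ± 0.26 (adjusted p = 0.0138). Its rise in WT, 0.66 log2 (adjusted p = 0.0481), was called in only 9 of 20 alternative settings.

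**Figure D3:**
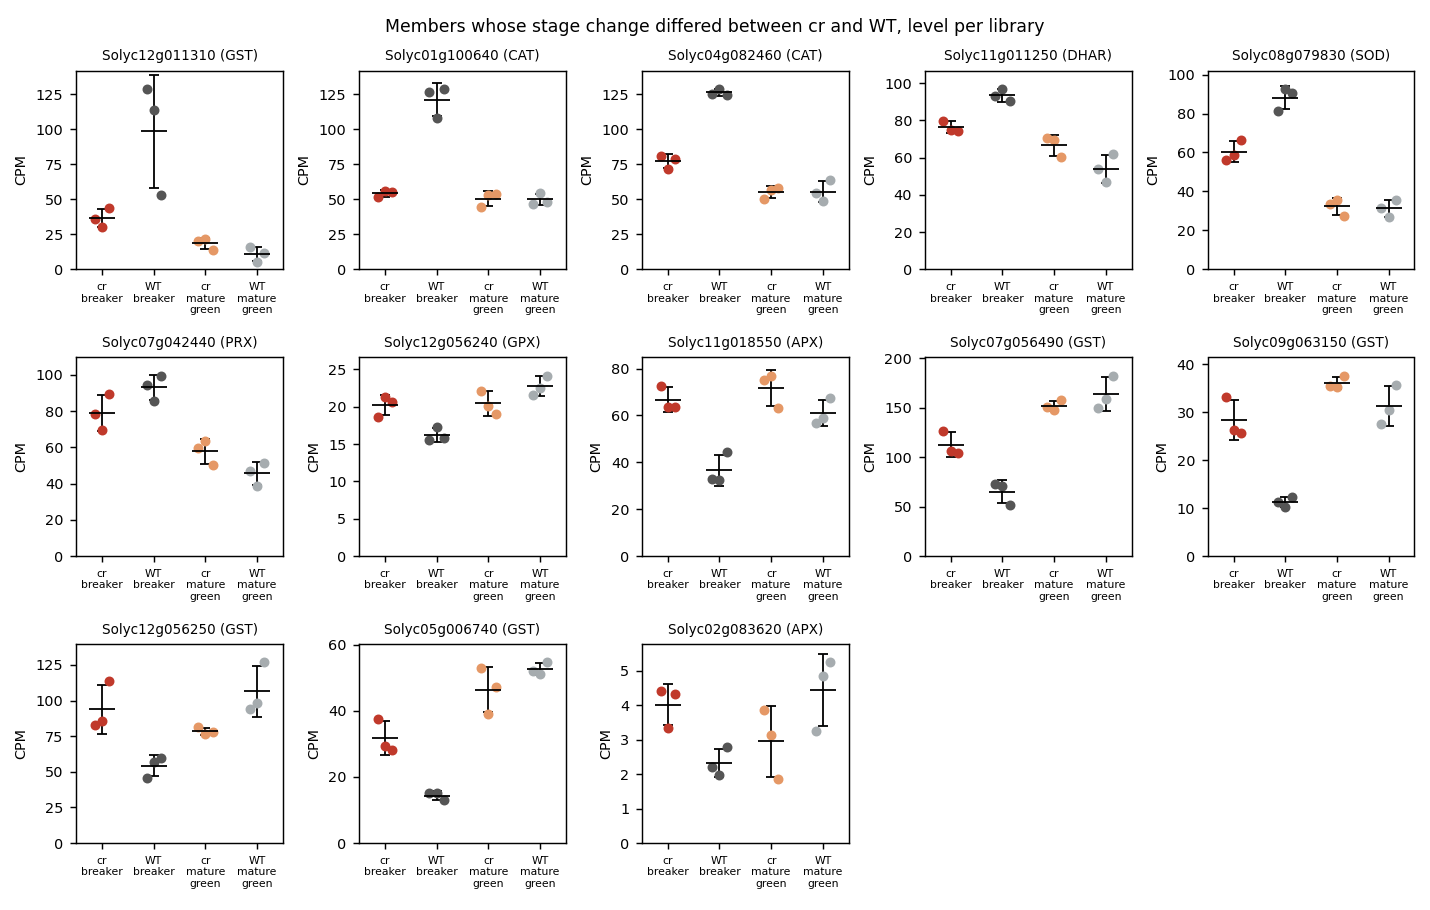
CPM in each library of members whose stage change differed between the lines, 1 panel a gene, with cr breaker, WT breaker, cr mature green and WT mature green from left to right. Points are libraries and bars mean ± SD (n = 3 each); axes are linear and start at 0. In the panel of the catalase Solyc01g100640 the WT breaker libraries lie between 108 and 129 CPM and every other library between 44.6 and 55.8 CPM.

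Ascorbate peroxidases changed in both directions, with no common direction for the class. In WT 2 of 10 were higher and 3 lower at breaker, in cr 1 was higher and none lower, and at breaker 3 were higher and 1 lower in cr than in WT. Solyc09g007270 (chromosome 9, 884116 to 888249), the most abundant, had 435, 519.5 and 509.5 CPM in cr breaker and 998, 1120.0 and 745 CPM in WT breaker. At mature green it had 433, 288 and 295 CPM in cr and 344, 410.0 and 509.9 CPM in WT. WT breaker exceeded every other group, and cr breaker was just above cr mature green with no overlap. It was lower in cr than in WT at breaker, with a log2 fold change of -0.97 ± 0.19 (adjusted p = 0.00306) and rose in WT by 1.18 ± 0.20 (adjusted p = 0.000271). In cr the value was 0.53 ± 0.19 (adjusted p = 0.0579), and a call was made without WT breaker library 3, cr mature green library 1 or WT mature green library 3 (adjusted p 0.0157 to 0.0488) and with a fit of only the groups compared, both libraries that stand apart left out or the DESeq2 test (adjusted p 0.0294 to 0.0472).

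Solyc11g018550, described as a stromal enzyme and in its best match as a thylakoid one, had 72.7, 63.4 and 63.6 CPM in cr breaker and 33.0, 32.5 and 44.3 CPM in WT breaker. Mature green fruit gave 74.9, 77.0 and 63.1 CPM in cr and 57.0, 59.0 and 67.3 CPM in WT. WT breaker was the low group, below the other 3 without overlap. The gene was higher in cr than in WT at breaker by 0.86 ± 0.13 log2 (adjusted p = 0.000427) and its stage change was -0.11 ± 0.13 in cr (adjusted p = 0.571) and -0.74 ± 0.13 in WT (adjusted p = 0.000398). The stage changes differed by 0.63 ± 0.18 (adjusted p = 0.0355), a call that was lost without cr breaker library 1, WT breaker library 1 or 2, cr mature green library 1 or 3 or WT mature green library 2 or 3 (adjusted p 0.0576 to 0.0899) and with both libraries that stand apart left out (adjusted p 0.146). The other stromal member, Solyc06g060260, rose between stages by 0.48 ± 0.11 in cr and 0.74 ± 0.11 in WT and was not called between the lines. The low member Solyc02g083620 had 4.41, 3.32 and 4.32 CPM in cr breaker and 2.20, 1.99 and 2.79 CPM in WT breaker. For mature green, the values were 3.87, 3.13 and 1.84 CPM in cr and 3.25, 4.83 and 5.24 CPM in WT. Its stage changes of 0.45 ± 0.28 in cr and -0.93 ± 0.29 in WT differed by 1.38 ± 0.41 (adjusted p = 0.0413), and the call of this difference was lost without cr breaker library 1 or 3, WT breaker library 1 or 2, cr mature green library 2 or 3 or WT mature green library 2 or 3 (adjusted p 0.0692 to 0.0933) and with both libraries that stand apart left out (adjusted p 0.157). TL29 (Solyc04g074640), a thylakoid lumen protein related to ascorbate peroxidases, gave 62 counts in cr breaker, 6 in WT breaker, 164 in cr mature green and 79 in WT mature green, each summed over 3 libraries, and was higher in cr at breaker by 3.12 ± 0.68 log2 (adjusted p = 0.00498). The cytosolic pair Solyc06g005150 and Solyc06g005160, side by side on chromosome 6, was called in no comparison. For Solyc06g005150, however, a call between stages in cr was made without WT mature green library 3 (adjusted p 0.0465) and with both libraries that stand apart left out (adjusted p 0.0392). One between stages in WT was made without WT mature green library 3 (adjusted p 0.0478) and with both libraries that stand apart left out (adjusted p 0.042). The remaining call at breaker was Solyc01g111510, higher in cr by 0.34 ± 0.11 (adjusted p = 0.031), which was lost without cr breaker library 1 or WT breaker library 1, 2 or 3 (adjusted p 0.0516 to 0.128) and with a fit of only the groups compared or both libraries that stand apart left out (adjusted p 0.0927 to 0.13).

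In the monodehydroascorbate reductase, dehydroascorbate reductase and glutathione reductase classes, the called stage changes were upward but for 1 glutathione reductase in WT. Another 4 members match dehydroascorbate reductases best but are described as transferases and were counted there. Of these, 1 was higher and 3 were lower at breaker in WT, with none called in cr. The dehydroascorbate reductase Solyc11g011250 had 79.9, 74.8 and 74.1 CPM in cr breaker and 93.0, 97.0 and 90.3 CPM in WT breaker. Mature green libraries had 70.4, 69.6 and 60.2 CPM in cr and 53.9, 46.7 and 61.8 CPM in WT. In WT the stages stood well apart, and at mature green the 2 lines overlapped. It rose in WT by 0.79 ± 0.10 log2 (adjusted p = 3.94e-05), the value in cr was 0.19 ± 0.10 (adjusted p = 0.177), and the changes differed by -0.60 ± 0.14 (adjusted p = 0.0173). Between cr and WT at breaker it gave -0.29 ± 0.10 (adjusted p = 0.0512), short of a call that was made without WT mature green library 2 or 3 (adjusted p 0.0305 to 0.0317) and with DESeq2 size factors, both libraries that stand apart left out or the DESeq2 test (adjusted p 0.0325 to 0.0473).

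Of the 3 monodehydroascorbate reductases, which regenerate ascorbate from its radical, Solyc02g086710 rose by 0.39 ± 0.09 in cr and 0.38 ± 0.09 in WT, the second of which was lost with library totals (adjusted p 0.0854). AFRR (Solyc09g009390) rose by 0.24 ± 0.08 in WT (adjusted p = 0.0264), a call that was lost without WT breaker library 2 or WT mature green library 1 or 2 (adjusted p 0.0644 to 0.106) and with upper quartile factors, library totals or a fit of only the groups compared (adjusted p 0.105 to 0.622), and Solyc08g081530 was called nowhere, with 79.2 ± 11.2 CPM in cr breaker and 84.5 ± 7.998 CPM in WT breaker. In mature green fruit it had 71.8 ± 5.10 CPM in cr and 79.5 ± 9.12 CPM in WT. With library totals none of the class was called in WT. The glutathione reductases moved apart in WT. Solyc09g065900 rose by 0.45 ± 0.11 in cr (adjusted p = 0.00739) and 0.58 ± 0.11 in WT (adjusted p = 0.000675), while Solyc09g091840 had -0.20 ± 0.09 in cr (adjusted p = 0.125) and -0.39 ± 0.09 in WT (adjusted p = 0.00397), a fall. Their sum, as given above, averaged 235 to 256 CPM in the 4 groups.

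Thiol peroxidases rose at breaker where they were called, with few exceptions. Of 8 glutathione peroxidases, 2 were higher in cr, 3 were higher and 1 lower in WT, and at breaker 1 was higher and 2 lower in cr than in WT, a split that library totals turned to 2 higher and 1 lower. In WT they gave 3 higher and 3 lower. GPXle-1 (Solyc08g080940) had 155, 155 and 188 CPM in cr breaker and 309, 296 and 217 CPM in WT breaker. Its mature green values were 106, 106 and 104 CPM in cr and 114, 115 and 142 CPM in WT. No 2 groups overlapped. It rose by 0.66 ± 0.14 log2 in cr (adjusted p = 0.00318) and 1.15 ± 0.14 in WT (adjusted p = 1.85e-05), and was lower in cr than in WT at breaker, at -0.72 ± 0.14 (adjusted p = 0.00196). Solyc08g006720 rose by 0.59 log2 in cr and 0.77 in WT, and Solyc06g073460, a phospholipid hydroperoxide type, rose by 0.45 in WT. Solyc12g056240 went the other way in WT, with 18.7, 21.3 and 20.6 CPM in cr breaker and 15.5, 17.3 and 15.9 CPM in WT breaker. The mature green libraries gave 22.2, 20.1 and 19.0 CPM in cr and 21.5, 22.5 and 24.2 CPM in WT. Its stage change was -0.02 ± 0.10 in cr (adjusted p = 0.92) and -0.49 ± 0.10 in WT (adjusted p = 0.00141), with a difference of 0.47 ± 0.14 (adjusted p = 0.0449), a call that was lost without cr breaker library 2 or 3, WT breaker library 1, 2 or 3, cr mature green library 2 or 3 or WT mature green library 1, 2 or 3 (adjusted p 0.0521 to 0.106) and with DESeq2 size factors, no filter on low counts or both libraries that stand apart left out (adjusted p 0.051 to 0.078).

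Of 6 peroxiredoxins, 2 were higher at breaker in cr and 3 in WT, none was lower, and none was called between the lines at either stage. Library totals made 1 call for higher in cr at breaker. At mature green, calls for lower in cr were made for 2 of the members named here under other settings. The peroxiredoxin-2E gene Solyc10g083650, of a type that resides in plastids in Arabidopsis, had 214, 284 and 337 CPM in cr breaker and 328, 339 and 413 CPM in WT breaker. At mature green it had 77.2, 72.5 and 55.1 CPM in cr and 104, 79.0 and 155 CPM in WT. All breaker libraries lay above all mature green libraries. The rise was 2.03 ± 0.23 log2 in cr (adjusted p = 5.95e-05) and 1.68 ± 0.23 in WT (adjusted p = 5.83e-05). At mature green cr against WT gave -0.72 ± 0.23 (adjusted p = 0.0968), and a call was made without WT mature green library 2 (adjusted p 0.0404) and with the DESeq2 test (adjusted p 0.0238). Peroxiredoxin Q (Solyc07g042440), a plastid thiol peroxidase, had 78.2, 69.7 and 89.3 CPM in cr breaker and 94.3, 85.9 and 99.7 CPM in WT breaker. Mature green fruit gave 59.5, 63.7 and 50.4 CPM in cr and 46.9, 38.6 and 51.5 CPM in WT. It rose by 0.45 ± 0.13 in cr and 1.03 ± 0.13 in WT, with a difference of -0.58 ± 0.18 between them (adjusted p = 0.0495). The call in cr was lost without cr breaker library 3 or cr mature green library 3 (adjusted p 0.0856 to 0.0877) and with library totals (adjusted p 0.0511). The call of the difference was lost without cr breaker library 1 or 2, WT breaker library 1, 2 or 3, cr mature green library 1 or 2 or WT mature green library 1 or 2 (adjusted p 0.0582 to 0.119) and with upper quartile factors, library totals, no filter on low counts or both libraries that stand apart left out (adjusted p 0.0507 to 0.0926). The most abundant peroxiredoxin, Solyc07g020860, was called in no comparison, with 358 ± 21.0 CPM in cr breaker and 414 ± 29.8 CPM in WT breaker. For mature green, the means were 299.5 ± 15.1 CPM in cr and 378 ± 57.4 CPM in WT. For cr against WT at mature green, -0.34 ± 0.11, a call was made with the DESeq2 test (adjusted p 0.049), and for the stages in WT, 0.13 ± 0.11, one was made with both libraries that stand apart left out (adjusted p 0.0488).

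At mature green the 3 members called lower in cr were 1 glutathione peroxidase and 2 glutathione transferases. The glutathione peroxidase Solyc12g056230 had 74.6, 68.7 and 74.3 CPM in cr mature green and 88.7, 102 and 110.4 CPM in WT mature green, without overlap, a log2 fold change of -0.47 ± 0.09 (adjusted p = 0.0123). That call was lost without cr mature green library 2 or WT mature green library 3 (adjusted p 0.0585 to 0.0616). The lambda transferase Solyc10g084400 had 37.3, 27.9 and 33.4 CPM in cr mature green and 51.4, 54.0 and 58.2 CPM in WT mature green, a fold change of -0.73 ± 0.17 (adjusted p = 0.0349), and this call was lost without cr breaker library 2, cr mature green library 1, 2 or 3 or WT mature green library 1, 2 or 3 (adjusted p 0.052 to 0.141). The tau transferase Solyc07g056500 had 21.4, 16.4 and 17.96 CPM in cr mature green and 27.1, 24.5 and 36.8 CPM in WT mature green, a fold change of -0.66 ± 0.16 (adjusted p = 0.0405), and the call was lost without WT breaker library 1 or 2, cr mature green library 1, 2 or 3 or WT mature green library 1 or 3 (adjusted p 0.0511 to 0.175) and with a fit of only the groups compared or both libraries that stand apart left out (adjusted p 0.0552 to 0.146).

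**Figure D4:**
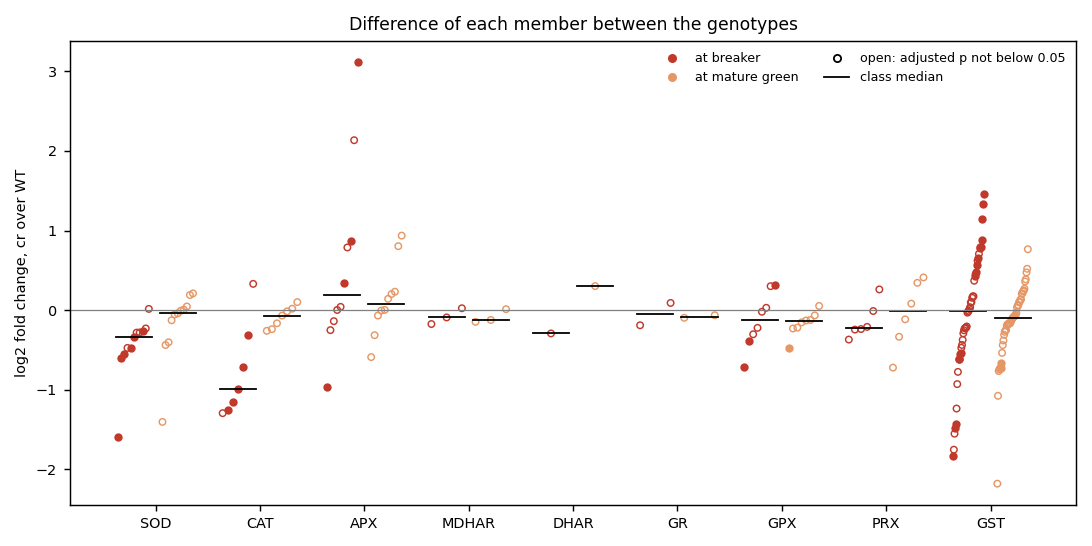
Log2 fold change of cr over WT for each of the 94 members, by class, at breaker and at mature green (edgeR, 3 libraries in each group). Filled points were called at an adjusted p under 0.05 and open points were not; classes are SOD superoxide dismutase, CAT catalase, APX ascorbate peroxidase, MDHAR monodehydroascorbate reductase, DHAR dehydroascorbate reductase, GR glutathione reductase, GPX glutathione peroxidase, PRX peroxiredoxin and GST glutathione transferase. At breaker the 6 called superoxide dismutase and 5 called catalase points lie below 0, and at mature green 3 points are filled.

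Glutathione transferases, 46 of the 94 members, were called in both directions in every comparison but cr against WT at mature green, where the 2 calls were lower. In cr 10 were higher and 5 lower at breaker, in WT 16 were higher and 12 lower, and at breaker 11 were higher and 7 lower in cr than in WT. Together these calls cover 32.6%, 60.9% and 39.1% of the class, beside 28.7%, 48.3% and 25.0% of all genes. With library totals the WT split became 13 higher and 17 lower and the cr split 7 and 7. By their descriptions 22 members were of the tau class, large and particular to plants and known for responses to stress and auxin. The theta class had 4, lambda 3, phi 3, zeta 2 and glutathionyl-hydroquinone reductases 2, and 4 were of the dehydroascorbate reductase-like class. There was 1 member each of the TCHQD and microsomal classes, and the remaining 4 had no class in the description. By description or best match these are an elongation factor subunit, a mitochondrial import protein, a thioredoxin family protein and a desiccation-related protein. The transferase sum and counts include them. In the tau class 5 were higher and 3 lower in cr, 9 higher and 7 lower in WT, and 7 higher and 3 lower in cr than in WT at breaker. The tau shares called were 36.4%, 72.7% and 45.5%, to be read beside the same shares of all genes. Of the dehydroascorbate reductase-like transferases, 1 was higher and 3 lower in WT.

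The largest difference in stage change among members called there was that of Solyc12g011310 (chromosome 12, 4203131 to 4204692), a tau transferase whose best match is the auxin-regulated protein parC of tobacco. It had 35.5, 30.4 and 43.5 CPM in cr breaker and 129, 114 and 52.9 CPM in WT breaker. Mature green libraries had 20.1, 21.6 and 13.7 CPM in cr and 15.8, 5.46 and 11.3 CPM in WT. WT breaker was high in all 3 libraries, with library 3 well below the other two, and lay above every other group. The rise in WT was 3.18 ± 0.37 log2 (adjusted p = 1.63e-05), the value in cr was 0.98 ± 0.35 (adjusted p = 0.0507), and the difference was -2.20 ± 0.50 (adjusted p = 0.0122). In cr a call was made without WT breaker library 3 or WT mature green library 1 or 2 (adjusted p 0.0204 to 0.0412) and with no filter on low counts or a fit of only the groups compared (adjusted p 0.00744 to 0.0383). At breaker cr against WT gave -1.43 ± 0.34 (adjusted p = 0.00816).

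Other transferases fell in WT and fell less or were not called in cr. The tau transferase Solyc05g006740 (chromosome 5, 1428803 to 1430736) had 37.7, 29.3 and 28.3 CPM in cr breaker and 15.2, 15.01 and 12.9 CPM in WT breaker. In mature green fruit it had 52.9, 39.2 and 47.2 CPM in cr and 52.0, 51.1 and 54.7 CPM in WT. It was low in WT breaker, with no overlap with any other group. It fell in both lines, with log2 fold changes of -0.55 ± 0.13 in cr (adjusted p = 0.00684) and -1.87 ± 0.14 in WT (adjusted p = 4.12e-07), a difference of 1.32 ± 0.19 (adjusted p = 0.000769). The tau transferase Solyc09g063150 (chromosome 9, 57279355 to 57281129) had 33.3, 26.3 and 25.7 CPM in cr breaker and 11.4, 10.2 and 12.4 CPM in WT breaker. Its mature green values were 35.5, 35.3 and 37.7 CPM in cr and 27.6, 30.5 and 35.7 CPM in WT. WT breaker was again the low group, and the gene was higher in cr at breaker by 1.33 ± 0.13 (adjusted p = 2.4e-05). Its stage change was -0.34 ± 0.12 in cr (adjusted p = 0.0519) and -1.47 ± 0.13 in WT (adjusted p = 1.73e-06), differing by 1.12 ± 0.18 (adjusted p = 0.00175). A call in cr was made without cr breaker library 1, WT breaker library 3 or WT mature green library 1 or 3 (adjusted p 0.0105 to 0.0493) and with DESeq2 size factors, upper quartile factors, library totals, both libraries that stand apart left out or the DESeq2 test (adjusted p 0.00551 to 0.0431).

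The theta transferase Solyc12g056250 lies beside the glutathione peroxidases Solyc12g056230 and Solyc12g056240 on chromosome 12; theta enzymes of plants can reduce organic peroxides. It had 82.6, 85.7 and 114 CPM in cr breaker and 46.0, 57.0 and 60.0 CPM in WT breaker. The mature green libraries gave 81.3, 76.4 and 77.7 CPM in cr and 94.3, 98.2 and 127 CPM in WT. Its stage change was 0.26 ± 0.14 log2 in cr (adjusted p = 0.199) and -0.97 ± 0.15 in WT (adjusted p = 0.000126), a difference of 1.23 ± 0.21 (adjusted p = 0.0023). WT breaker was lower than cr breaker in every library, at a fold change of 0.79 ± 0.15 for cr over WT (adjusted p = 0.00178).

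Members of the lambda, zeta and phi classes were also called at breaker, in both directions. The lambda transferase Solyc10g084400, of a class with thiol transferase rather than conjugating activity, had 45.8, 63.3 and 78.7 CPM in cr breaker and 203, 154 and 167 CPM in WT breaker, beside the mature green values above. It rose by 0.93 ± 0.17 log2 in cr and 1.68 ± 0.17 in WT, and was lower in cr than in WT at breaker, at -1.48 ± 0.17 (adjusted p = 7.76e-05), with no overlap. The other lambda members, Solyc04g009530 and Solyc09g007150, were called higher in cr at breaker, at 0.57 ± 0.15 and 0.43 ± 0.14. The call of Solyc04g009530 was lost without WT breaker library 1 or 2 (adjusted p 0.066 to 0.068). The call of Solyc09g007150 was lost without cr breaker library 1 or 3, WT breaker library 1 or 2 or cr mature green library 1, 2 or 3 (adjusted p 0.0508 to 0.14) and with no filter on low counts, a fit of only the groups compared or both libraries that stand apart left out (adjusted p 0.0579 to 0.14). The zeta transferase Solyc01g102660, a class that acts as maleylacetoacetate isomerase in tyrosine breakdown, had 478, 496 and 486 CPM in cr breaker and 751, 812 and 575 CPM in WT breaker. At mature green it had 439, 405 and 406 CPM in cr and 471, 467 and 551 CPM in WT. It was lower in cr at breaker, at -0.55 ± 0.12 (adjusted p = 0.00596) and rose in WT by 0.52 ± 0.12 (adjusted p = 0.00357). The phi transferase Solyc06g009020, of a class that includes carriers of anthocyanins in other plants, was lower in cr at breaker, at -0.62 ± 0.12 (adjusted p = 0.00232), and rose in WT by 0.65 ± 0.12 (adjusted p = 0.000542).

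The tau transferases of chromosome 7 form a row of 10 genes between 64194793 and 64227142, of which 8 met the count minimum, and neighbours in it moved in opposite directions. In cr 4 were higher and 1 lower at breaker, in WT 4 were higher and 3 lower, and at breaker 3 were higher and 1 lower in cr than in WT. Solyc07g056430 had 7.34, 13.4 and 12.7 CPM in cr breaker and 17.4, 17.69 and 11.3 CPM in WT breaker. Mature green fruit gave 1.61, 2.58 and 1.99 CPM in cr and 2.63, 1.31 and 3.55 CPM in WT. The gene rose by 2.43 ± 0.34 log2 in cr and 2.63 ± 0.34 in WT. Solyc07g056510, whose best match is parA of tobacco, had 6.18, 5.63 and 16.9 CPM in cr breaker and 47.1, 27.0 and 9.93 CPM in WT breaker. For mature green, the values were 1.32, 0.744 and 0.340 CPM in cr and 3.66, 0.578 and 0.818 CPM in WT. Both genes were low at mature green and higher in every breaker library of the same line, and the fitted changes of Solyc07g056510 were 3.56 ± 0.78 in cr (adjusted p = 0.00453) and 4.04 ± 0.72 in WT (adjusted p = 0.00046). Solyc07g056490, between them and on the opposite strand to Solyc07g056430, had 127, 106 and 104 CPM in cr breaker and 73.0, 71.2 and 51.5 CPM in WT breaker. Mature green libraries had 150.3, 148 and 158 CPM in cr and 149.9, 159 and 182 CPM in WT. It fell in both lines, at -0.44 ± 0.13 in cr (adjusted p = 0.0236) and -1.33 ± 0.13 in WT (adjusted p = 4.27e-06), a difference of 0.89 ± 0.18 (adjusted p = 0.00756). Its call in cr was lost without cr breaker library 2 or 3 or cr mature green library 1 or 3 (adjusted p 0.0511 to 0.0925). Solyc07g056470 fell in WT, at -1.57 ± 0.30, and was higher in cr at breaker by 1.45 ± 0.30 (adjusted p = 0.00329). Solyc07g056440 had 5.06 ± 0.865 CPM in cr breaker and 2.75 ± 0.909 CPM in WT breaker. It was higher in cr at breaker by 0.88 (adjusted p = 0.0256), a call made in 14 of 20 alternative settings. Its stage change was called in neither line. Solyc07g056420 rose by 1.12 ± 0.21 in cr and 1.01 ± 0.21 in WT; its value for cr against WT at breaker, -0.62 ± 0.21 (adjusted p = 0.0428), was called although the groups overlapped, and was lost without cr breaker library 1 or 3, WT breaker library 1 or 2, cr mature green library 1, 2 or 3 or WT mature green library 1 or 2 (adjusted p 0.0525 to 0.207) and with upper quartile factors, library totals, a fit of only the groups compared or both libraries that stand apart left out (adjusted p 0.0594 to 0.119). Near copies in such a row can share reads, so the split between neighbours is uncertain.

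**Figure D5:**
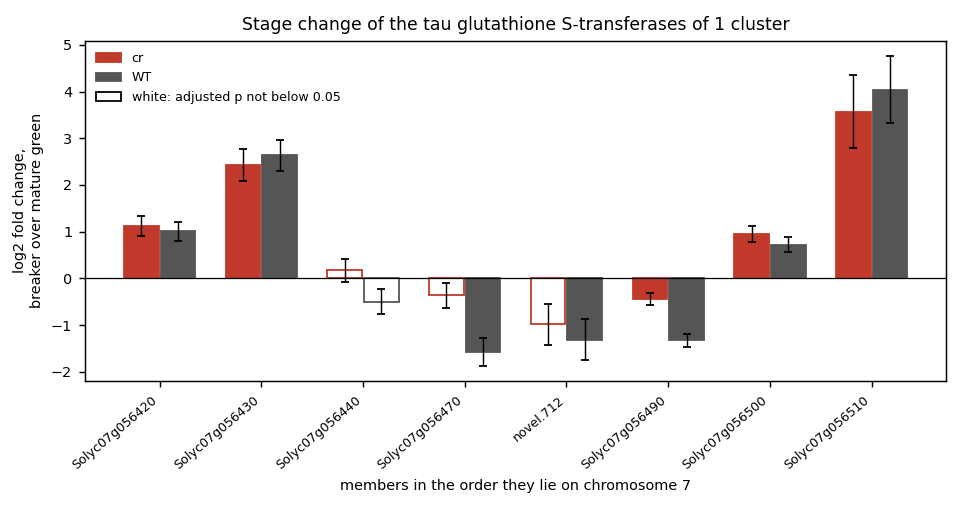
Log2 fold change of breaker over mature green for the 8 tau transferase members of the chromosome 7 row in gene order, in cr and in WT. Bars are edgeR fold changes with their SE (3 libraries in each group), and white bars were not called at an adjusted p under 0.05. Solyc07g056490 lies below 0 in both lines, at -0.44 in cr and -1.33 in WT. Solyc07g056420 and Solyc07g056510 lie above 0 in both.

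A second row of tau transferases on chromosome 9, 14 genes between 4857023 and 4950749 of which 6 met the count minimum, gave 1 higher and 1 lower in cr and 3 higher and 1 lower in WT. That is 33.3% and 66.7% of the 6, beside 28.7% and 48.3% of all genes. Solyc09g011650 had 5.88, 7.45 and 7.27 CPM in cr breaker and 5.002, 3.85 and 4.18 CPM in WT breaker. In mature green fruit it had 18.5, 13.2 and 14.1 CPM in cr and 13.5, 17.0 and 17.9 CPM in WT. It fell in both lines, at -1.15 ± 0.17 log2 in cr and -1.89 ± 0.18 in WT, and was higher in cr at breaker by 0.66 ± 0.18 (adjusted p = 0.0197). That last call was lost without cr breaker library 2 or WT breaker library 2 or 3 (adjusted p 0.0513 to 0.0773). A transferase with no Solyc identifier lies between Solyc09g011550 and Solyc09g011590. Its rise in WT, 2.29 ± 0.63 (adjusted p = 0.00882), rested on 1 library. It had 15.8, 4.38 and 2.605 CPM in WT breaker and 1.96, 1.73 and 0.927 CPM in WT mature green, and the call was lost without WT breaker library 1 (adjusted p 0.0838).

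The test of whether the stage change differed between cr and WT called 13 members. In 6 of them the change was lower in cr, the catalases Solyc01g100640 and Solyc04g082460, the copper chaperone, the dehydroascorbate reductase, peroxiredoxin Q and the tau transferase Solyc12g011310. In 7 it was higher in cr, the ascorbate peroxidases Solyc11g018550 and Solyc02g083620, the glutathione peroxidase Solyc12g056240 and the transferases Solyc05g006740, Solyc09g063150, Solyc12g056250 and Solyc07g056490. In each of the 7 the mean level in WT was lower at breaker than at mature green. The transferases named here, both catalases and the dehydroascorbate reductase passed the test under all 19 alternative settings that gave a value.

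Genes of neighbouring pathways were counted from lists set by description. Of all genes tested, 28.7% were called between stages in cr, 48.3% in WT and 25.0% for cr against WT at breaker. No list was tested against these shares. Of 2 glutathione synthesis genes, gamma-glutamylcysteine synthetase (Solyc08g081010), the first enzyme of the pathway, averaged 322 CPM in cr breaker and 488 CPM in WT breaker. Its mature green means were 99.4 CPM in cr and 140.4 CPM in WT. It rose by 1.70 log2 in cr (adjusted p = 1.53e-05) and 1.80 in WT (adjusted p = 1.63e-06) and was lower in cr at breaker, at -0.60 (adjusted p = 0.0127), while the other gene, glutathione synthetase, was not called. Of 9 ascorbate synthesis genes tested, 1 was higher and 4 lower at breaker in cr, 2 higher and 5 lower in WT, and 2 higher and 2 lower in cr than in WT at breaker. GDP-L-galactose phosphorylase (Solyc06g073320), which commits mannose units to ascorbate, averaged 448 CPM in cr breaker and 586 CPM in WT breaker. At mature green the means were 663 CPM in cr and 386 CPM in WT. Its log2 stage change was -0.57 in cr (adjusted p = 0.00207) and 0.60 in WT (adjusted p = 0.000544), and these differed by -1.17 (adjusted p = 0.000584). For cr against WT it gave 0.78 at mature green (adjusted p = 0.00242), called in all 20 alternative settings. At breaker it gave -0.39 (adjusted p = 0.0198), called in 16 of 20. Of 10 ascorbate oxidases, cell wall enzymes that consume ascorbate, 1 was higher and 5 lower in cr and 1 higher and 4 lower in WT at breaker.

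All 3 alternative oxidase genes tested were lower in cr than in WT at breaker, among them the plastid terminal oxidase Solyc11g011990, which serves carotenoid synthesis, at -0.78 log2 (adjusted p = 0.000194). It rose by 0.65 in cr and 1.203 in WT. Of 108 thioredoxin and glutaredoxin genes, 22 were higher and 9 lower at breaker in cr, 34 higher and 26 lower in WT, and 15 higher and 15 lower in cr than in WT at breaker, with a median of 0.02 for that comparison. In both directions together 28.7%, 55.6% and 27.8% of them were called, where 28.7%, 48.3% and 25.0% of all genes were. Of 12 glyoxalase genes, 3 were higher and none lower in cr, 7 higher and 3 lower in WT, and 3 higher and 5 lower in cr than in WT at breaker. Of 7 NADPH oxidases, membrane enzymes that make superoxide, 1 was higher and 2 lower in cr, 1 higher and 3 lower in WT, and 2 higher and none lower in cr than in WT at breaker.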

How the data were processed

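RNA of 12 pericarp libraries was sequenced, 3 in each of 4 groups of line and stage. The authors deposited raw read counts per gene and FPKM values, on gene coordinates of the SL4.0 build per the file headers. From the values, the deposited FPKM are counts scaled by gene length and by an effective library size that ran from 0.885 to 1.08 times the library total. Per the submitters' processing notes, the tools were edgeR 3.22.5, DESeq2 1.20.0, featureCounts 1.5.0-p3, HISAT2 2.0.5 and fastp 0.23.1, with no strand setting or rule for reads with several matches given.

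Genes were kept with filterByExpr (minimum count 10, minimum total 15), leaving 19664 with 99.9% of the counts, and scaled by TMM. edgeR 4.0.16 in R 4.3.3 (quasi-likelihood fit and test) was run on the deposited counts with 1 coefficient for each group over all 12 libraries, with no covariate, with Benjamini-Hochberg adjustment over all genes tested and a threshold of 0.05. The common biological coefficient of variation was 0.155. Scripts were tested on simulated data. The comparisons were cr against WT at each stage, breaker against mature green in each line, and the difference between the 2 stage changes. The members, lists and tests were chosen with earlier results of these data known. Replicate pairs differed by more than sampling noise, so no library was counted as a copy of another.

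The genes named are, in each class, the member of highest mean FPKM and the called member of smallest p in each comparison, every member of classes of 4 or fewer, the 5 largest called changes in each direction with a mean log2 CPM of at least 1, and the 10 smallest interaction p-values, 42 genes in all. Outside that rule 13 members (Solyc01g111510, TL29, Solyc06g005150, Solyc06g005160, Solyc03g062890, Solyc02g021140, Solyc06g049080, SODCP.2, CAT2, Solyc01g099440, Solyc06g073460, Solyc04g009530 and Solyc06g009020) and 3 genes of other pathways were named after their values were seen. Alternatives were DESeq2 size factors, upper quartile factors, library totals, no count filter, the DESeq2 1.42.0 test, only the groups compared, a replicate block, and each library left out in turn. Members without the class domain, and the 2 libraries that stand apart, were also left out, chosen after seeing the data.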

Additional observations from a re-analysis of the deposited data

Results flagged for a closer look

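The change from mature green to breaker differed between cr and WT in 13 members, by the test of the difference itself (edgeR's quasi-likelihood test, adjusted over all genes tested). That is 13.8% of the 94 members, near the 13.1% of all genes called in the same test. Values are the log2 stage change in cr minus that in WT, and no cause was tested.

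It was below 0 in 6 members. The values were -1.18 for the catalase Solyc01g100640, -0.69 for the catalase Solyc04g082460, -2.20 for the tau transferase Solyc12g011310, -0.60 for the dehydroascorbate reductase Solyc11g011250, -0.59 for the copper chaperone Solyc08g079830 and -0.58 for peroxiredoxin Q, Solyc07g042440. All 6 had a rise in WT past the threshold.

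It was above 0 in 7 members. The values were 1.32 for the tau transferase Solyc05g006740, 1.12 for the tau transferase Solyc09g063150, 1.23 for the theta transferase Solyc12g056250, 0.89 for the tau transferase Solyc07g056490, 0.63 for the plastid ascorbate peroxidase Solyc11g018550, 1.38 for the ascorbate peroxidase Solyc02g083620 and 0.47 for the glutathione peroxidase Solyc12g056240. All 7 had a fall in WT past the threshold.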

How the results depend on the processing

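Counts of calls moved with some settings. At mature green, cr against WT, 0 members were higher and 3 lower, and these became 1 higher with only the groups compared or with the DESeq2 test, and 6 lower with the DESeq2 test. At breaker the 15 higher became 9 with only the groups compared. In cr the 5 lower between stages became 9 with library totals and 8 without both libraries that stand apart. The 7 higher for the difference in stage change became 11 with upper quartile factors, library totals or the DESeq2 test, and 4 without both libraries that stand apart.

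Leaving out 1 library at a time gave 0 to 1 higher and 0 to 4 lower for cr against WT at mature green, 9 to 15 higher and 13 to 25 lower at breaker, 18 to 30 higher and 3 to 8 lower between stages in cr, 39 to 44 higher and 15 to 18 lower in WT, and 4 to 8 higher and 4 to 7 lower for the difference. The count lower at mature green was 0 without WT library 3 or cr library 2 of that stage and 1 without WT library 1 or cr library 1 or 3. At breaker, WT library 2 gave the 9 higher and WT library 1 the 13 lower. In cr the 3 lower came without mature green library 1 or 3 or breaker library 2 or 3, and the 8 without breaker library 1. The 4 higher for the difference came without mature green library 3 of either line.

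Same-numbered libraries did not deviate together (correlations of -0.15 to 0.08), so the numbers do not pair the samples. With a replicate block the counts were 0 and 1 at mature green, 14 and 18 at breaker, 20 and 4 in cr, 40 and 17 in WT, and 4 and 4 for the difference, higher and lower in each pair. The lost calls listed gene by gene in the report leave the block out. With it, at adjusted p 0.0502 to 0.0806, calls were also lost for Solyc11g018550, Solyc02g083620, Solyc12g056240, Solyc07g042440 and Solyc08g079830 (difference), for Solyc10g084400 and Solyc07g056500 (mature green), for SODCC.5, Solyc02g021140, Solyc07g056420, Solyc09g007150 and Solyc12g056240 (breaker), for AFRR and Solyc01g099440 (stages in WT) and for Solyc03g062890, Solyc02g021140, Solyc06g049080, Solyc06g011280 and CAT2 (stages in cr), and 1 was made for Solyc12g011310 (stages in cr).

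Class sums, as log2 differences, turned in 5 cases. Without CAT1 the catalase sum went to -0.75 for cr against WT at breaker and 0.94 between stages in WT, and without Solyc09g007270 the ascorbate peroxidase sum went to 0.10 at breaker. With library totals monodehydroascorbate reductase went to 0.0094 at breaker and glutathione reductase to -0.027 between stages in cr. Others moved by more than the spread between libraries. With library totals, cr against WT at breaker was -0.41 for superoxide dismutase, -0.16 for dehydroascorbate reductase, 0.083 for glutathione reductase and -0.067 for peroxiredoxin. With library totals, monodehydroascorbate reductase was 0.12 in cr and 0.046 in WT between stages, glutathione reductase -0.16 in WT, glutathione peroxidase 0.40 in WT and glutathione transferase 0.030 in cr. Upper quartile factors gave glutathione reductase -0.072 in WT, and FPKM gave peroxiredoxin 0.61 in cr. Without the most abundant member the stage values were 0.28 for catalase in cr, 0.096 in cr and 0.084 in WT for ascorbate peroxidase, 0.45 in cr and 0.58 in WT for glutathione reductase, 0.36 in WT for glutathione peroxidase, and 0.62 in cr and 0.82 in WT for peroxiredoxin. At breaker the same omission gave -0.19 for glutathione reductase and -0.25 for glutathione peroxidase. Members with the class domain alone gave superoxide dismutase -0.40 at breaker and 0.75 between stages in WT, a setting chosen after seeing the data, as was leaving out both libraries that stand apart. The cause of these moves was not tested, beyond what each omission itself removes.

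Of the 94 members, 84 reached 10 counts in all 12 libraries, and depth limits the precision of the others. With 3 libraries a group the spread is poorly known, and many calls near the threshold were lost without a single library.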

Other observations

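Members whose description names the chloroplast were set apart as a further description, with no test. Of the 19 that also carry the class domain, 8 were higher and none lower at breaker in cr, 11 were higher and 3 lower in WT, and 3 were higher and 3 lower in cr than in WT at breaker. In both directions together 42.1%, 73.7% and 31.6% of them were called, where 28.7%, 48.3% and 25.0% of all genes were. Of the 59 members with the class domain whose description does not name the chloroplast, 33.9%, 62.7% and 44.1% were called. Between the lines at breaker the chloroplast members were thus called less often than those. Of 4 ferritin genes tested, which store iron in plastids, 1 was higher and 1 lower at breaker in each line, and 1 was lower in cr than in WT at breaker.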
